A study of Mus musculus with 11 samples.

Results

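The Atp2b4, Optc and Prelp domain is a stretch of mouse chromosome 1 on which long peaks were called in the Xist RNA pulldown of female epiblast-like cells. Its members were the peaks of 6 lists that overlap chr1:135540000-135900000 on genome build mm9, a window of 360 kb. The window was chosen from the D2 lists because they carry one of their longest peaks there, so the length of the D2 peaks is given as a description and no test was made on it. Of 19818 peaks in the 6 lists, 25 met the rule.

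The series mapped Xist by RNA antisense purification followed by sequencing (RAP-seq), in which biotinylated probes against Xist pull down crosslinked chromatin and the DNA is sequenced. The groups were female epiblast-like cells (EpiLCs) after 2 days (D2, n = 2) and after 4 days (D4, n = 2) with Activin A and bFGF on geltrex, female mouse embryonic fibroblasts (MEFs, n = 1) and male MEFs (n = 1). EpiLCs are embryonic stem cells, kept before that in LIF with the inhibitors CHIR99021 and PD0325901, on their way to a state like the early epiblast. No group received any other agent, and the labels give no strain, line or age. The replicate 1 EpiLC libraries re-analyse data deposited earlier, and nothing in the labels says that replicates came from separate cultures, so the spread between them may be technical. Read counts are not part of the lists. Depth is therefore unknown, and a deeper library yields more and longer peaks. No expression values were used, so the cell types were not checked against markers.

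Xist is a long noncoding RNA that spreads over an X chromosome of female cells and brings silencing factors and Polycomb complexes to it. Male cells have a single X and normally do not express Xist, so the peaks of the male MEF list were called without it. By −log10 p that list holds no peak as weak as the EpiLC peaks of the window. It therefore cannot show whether such signal occurs without Xist. There were no male EpiLCs. Atp2b4 encodes a plasma membrane calcium pump that moves calcium out of the cell. Optc encodes opticin and Prelp encodes prolargin, both small leucine-rich proteoglycans, which are extracellular matrix proteins, opticin of the eye and prolargin of cartilage and other connective tissue.

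In RefSeq's gene order on build GRCm38.p6, the members follow each other as Atp2b4, Optc and Prelp. Between Atp2b4 and Optc it lists a microRNA gene, Mir6903, and 3 genes for long noncoding RNAs. The nearest protein-coding neighbours are Lax1, which encodes a membrane adaptor of lymphocytes, beside Atp2b4, and Fmod, which encodes fibromodulin, another small leucine-rich proteoglycan, beyond Prelp. No gene table of build mm9 was used here. That the window holds the 3 genes is therefore taken from the rule that set it, and no peak is assigned below to a gene, exon or intron.

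Listed starts of the 3 genes for which the domain is named are shown. Whether they are the genes' main starts, or regulate them in these cells, was not tested. Each is RefSeq's stretch of 250 bases before to 50 after the start, read 5′ to 3′ on the minus strand of GRCm38.p6, with each CpG in capitals. Positions on that build do not correspond to the mm9 positions of the peaks.
Atp2b4, chr1:133753698-133753997: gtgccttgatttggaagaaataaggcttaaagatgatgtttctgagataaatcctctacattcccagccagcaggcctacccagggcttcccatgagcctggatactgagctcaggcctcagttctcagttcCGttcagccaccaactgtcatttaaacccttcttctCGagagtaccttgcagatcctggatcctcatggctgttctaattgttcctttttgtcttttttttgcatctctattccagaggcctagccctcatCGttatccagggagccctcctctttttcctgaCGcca
Optc, chr1:133907950-133908249: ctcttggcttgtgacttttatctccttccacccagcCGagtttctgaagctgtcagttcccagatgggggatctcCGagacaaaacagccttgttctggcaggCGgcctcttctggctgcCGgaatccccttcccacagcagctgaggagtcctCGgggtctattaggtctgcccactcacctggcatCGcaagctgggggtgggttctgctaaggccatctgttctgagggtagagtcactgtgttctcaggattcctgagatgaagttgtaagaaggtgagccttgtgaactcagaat
Prelp, chr1:133921352-133921651: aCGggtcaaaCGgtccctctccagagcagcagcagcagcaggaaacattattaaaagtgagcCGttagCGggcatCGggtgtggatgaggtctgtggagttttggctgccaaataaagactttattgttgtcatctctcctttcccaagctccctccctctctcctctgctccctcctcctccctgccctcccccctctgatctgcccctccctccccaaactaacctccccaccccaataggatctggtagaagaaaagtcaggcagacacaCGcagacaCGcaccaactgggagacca

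None of the 3 is rich in CpG. Atp2b4 has 4 CpGs and 47.7% GC, Optc has 6 and 54.3%, and Prelp has 7 and 55.3%, against medians of 7 CpGs and 52.7% GC over all 32851 promoters of the table. A search of both strands found no TATAAA, which 13.6% of all promoters hold, and no GGGCGG, which 35.7% hold, in any of the 3. The letters CCAAT occurred in Prelp alone, and in 37.4% of all promoters. These are matches of letters in a window of 300 bases, and no binding was measured.

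At D2 nearly the whole window lay under a single peak in both libraries. In D2 replicate 1 this peak ran from 135555928 to 135895269 (339 kb), and in D2 replicate 2 from 135552167 to 135887388 (335 kb). It was the longest peak of chromosome 1 in both lists, and the 14th and 5th longest of 8227 and 7544 autosomal peaks. Its left border differed by 3.76 kb between the replicates and its right border by 7.88 kb, and 96.6% of the joint length was called in both. Peaks covered 340 kb of the window in D2 replicate 1 and 336 kb in D2 replicate 2, a mean of 338 ± 2.33 kb (SD, n = 2). Counted in bins of 10 kb, 33 and 32 of 36 bins were covered end to end. The uncovered bases lay at the edges of the window, and no gap broke the long peak.

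**Figure D1:**
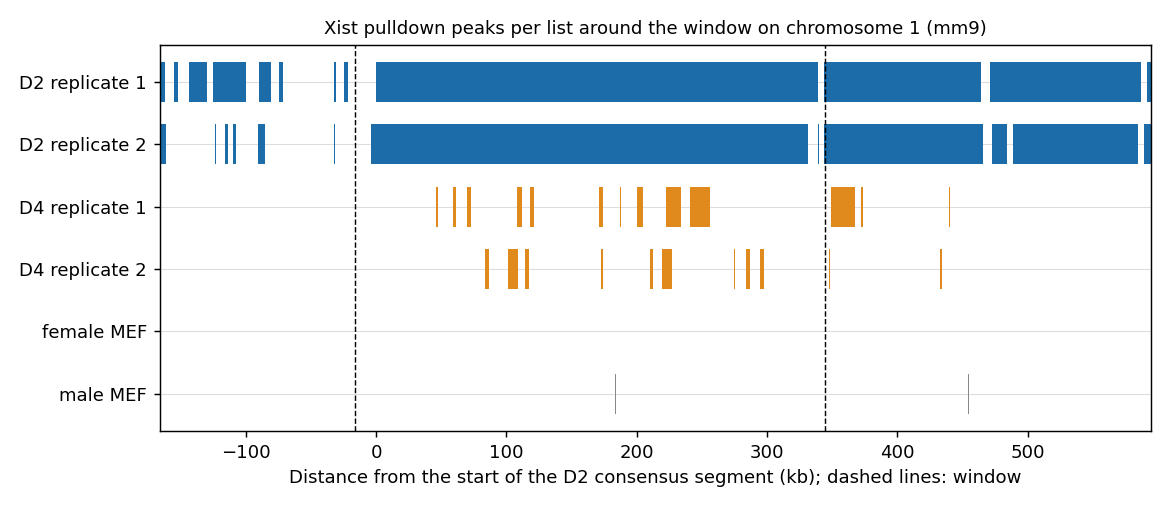
Peaks of the 6 lists (rows) as boxes along chromosome 1, with the distance from the start of the D2 consensus segment in kb on the horizontal axis and the window between the dashed lines. The D2 rows hold an unbroken block of 339 and 335 kb, the D4 rows hold 10 and 9 short peaks inside it, the female MEF row is empty and the male MEF row has 1 narrow peak in the window.

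The rule also took in peaks that only touch the right edge of the window. The next D2 peak, at 135899611 to 136019630 (120 kb) in replicate 1 and at 135899584 to 136021263 (122 kb) in replicate 2, has 390 and 417 bp inside it. In replicate 1 a gap of 4.34 kb separates it from the long peak. In replicate 2 a peak of 796 bp at 135894749 to 135895544 lies between them, with gaps of 7.36 and 4.04 kb on its sides. The peaks of the rule thus span 464 and 469 kb uncut. With gaps of up to 10 kb closed, the D2 consensus, meaning what both D2 lists cover, runs from 135555928 to 136183382, or 627 kb. The window cuts a longer called stretch on that side.

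On the other side the D2 signal was broken. In the 100 kb before the window the D2 lists held 5 and 4 peaks over 33.3 and 10.5 kb, and the nearest ended 5.30 and 15.9 kb outside the window. In the 100 kb after it they covered all 100 kb. Over 1 Mb on each side, D2 replicates 1 and 2 covered 35.4% and 19.2% before the window and 38.0% and 33.5% after it.

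At D4 peaks were called in the stretch in short pieces. D4 replicate 1 had 10 peaks in the window over 48.1 kb (13.3% of it), and D4 replicate 2 had 9 over 33.7 kb (9.35%). The mean was 40.9 ± 10.2 kb (SD, n = 2). All 10 and all 9 lay inside the D2 consensus segment at 135555928 to 135887388 (331 kb). Their median length was 3.16 and 3.58 kb, and the longest was 15.4 kb (135796452 to 135811826) in replicate 1 and 7.52 kb (135775649 to 135783168) in replicate 2. Each D2 library covered more of the window than each D4 library, which is the side the choice of the window favours. It did so in fewer peaks, although the whole D2 lists hold more peaks (8227 and 7544) than the D4 lists (1553 and 1148). The lists were called separately, so a sum of covered length moves with how much each call recovered.

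Mean covered length was 8.27 times as high at D2 as at D4, with ratios of 7.07 within replicate 1 and 9.99 within replicate 2. Over the whole lists the D2 length was 9.58 and 10.1 times that at D4, so the difference in the window was no larger than that of the lists as a whole. With 2 libraries a day, and with a window chosen for its D2 length, no test was made. The order depends on how many peaks are read from each list. The long D2 peaks ranked 439th and 598th by the authors' −log10 p. When each list was cut to its 326 strongest peaks, the size of the shortest list, both D2 lists held 0 peaks in the window, while D4 replicate 1 kept 1 over 10.9 kb and D4 replicate 2 kept 4 over 20.6 kb. That cut falls at unlike strengths, because the D2 lists are longer: the lowest −log10 p kept was 4.11 and 3.98 in D2 replicates 1 and 2, and 3.36 and 3.17 in D4 replicates 1 and 2. The dropped long D2 peaks had a −log10 p of 3.95 and 3.75, and the D4 peaks of the window reached at most 3.42 and 3.82.

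**Figure D2:**
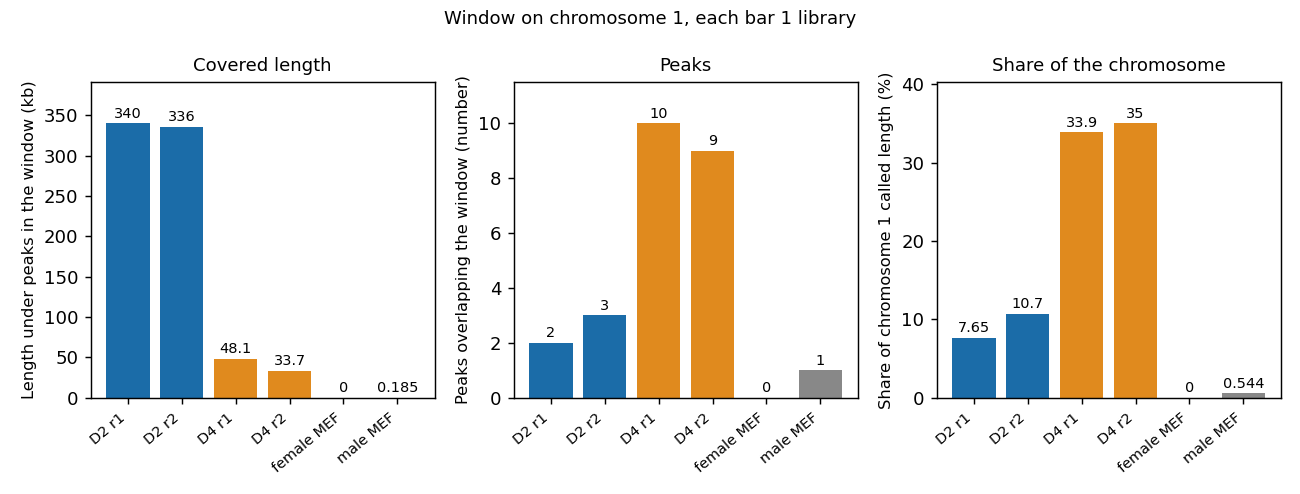
Length under peaks in the window in kb, number of peaks overlapping it, and share of all chromosome 1 called length that lies in it, each bar being 1 library with no error bar. The D2 libraries hold 340 and 336 kb in 2 and 3 peaks, and the D4 libraries hold 48.1 and 33.7 kb in 10 and 9 peaks, which make up 33.9% and 35.0% of their called length on the chromosome.

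Chromosome 1 was otherwise thinly marked at D4. Its lists held 43 and 37 peaks there over 142 and 96.2 kb. The window holds 23.3% and 24.3% of these peaks and 33.9% and 35.0% of their length, although it makes up 0.192% of the 187 Mb between the first and last chromosome 1 peaks of any list. At D2 the window held 7.65% and 10.7% of the chromosome's called length. Of the called length of the whole list, the window held 0.44% and 0.605% in D2 replicates 1 and 2, and 0.597% and 0.612% in D4 replicates 1 and 2. Before the window, the nearest D4 peak ended 155 kb away in replicate 1 and 14353 kb away in replicate 2. Just outside the right edge, D4 peaks began 4.67 kb away in replicate 1, with an 18.4 kb peak at 135904667 to 135923087, and 3.35 kb away in replicate 2, with a peak of 0.987 kb. That 18.4 kb peak, which the rule leaves out, is the longest D4 peak of chromosome 1 in replicate 1.

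The D4 replicates marked the same stretch but mostly different bases of it. Peaks of the replicates overlapped at 3 places, 135663700 to 135665032 (1.33 kb), 135728667 to 135729729 (1.06 kb) and 135778734 to 135783168 (4.43 kb). The shared length was 6.83 kb, which is 14.2% of the length in replicate 1, 20.3% of that in replicate 2 and 9.12% of the joint length. Over the whole D4 lists 24.3% of the joint length was shared. Counted by peaks, 3 of 10 (30.0%) in replicate 1 and 3 of 9 (33.3%) in replicate 2 had a counterpart, against 22.2% and 32.6% of all peaks of those lists. Of the 36 bins of 10 kb, 14 held D4 replicate 1 bases, 12 held D4 replicate 2 bases, 6 held both and 20 held either.

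Along the D2 segment the D4 peaks were uneven. The first D4 peak began 45.8 kb into it in replicate 1 (135601720) and 83.3 kb into it in replicate 2 (135639257). The last ended 75.6 kb before its end in replicate 1 (135811826) and 33.6 kb before it in replicate 2 (135853827). The widest gap was at the same place in both lists, 50.4 kb in replicate 1 and 55.1 kb in replicate 2, so that no D4 peak lay between 135676936 and 135727325, where both D2 lists were covered throughout. With the segment cut into 3 equal parts, D4 replicate 1 covered 10.1, 11.7 and 26.3 kb and D4 replicate 2 covered 11.2, 7.86 and 14.7 kb from left to right, so the right part, from 135776902, held the most in both. Within that part the lists diverged, with replicate 1 in 2 peaks of 10.9 and 15.4 kb up to 135811826 and replicate 2 in a peak at its start and 3 short ones between 135830155 and 135853827.

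In MEFs the window was all but empty. The female MEF list, with 1020 peaks of which 19 lie on chromosome 1, had 0 peaks in it. Its nearest peaks lay 997 kb before and 33041 kb after the window. The male MEF list, with 326 peaks and 24 on chromosome 1, had 1 peak in it, of 185 bp at 135738903 to 135739087. That peak lies inside both long D2 peaks, 3.78 kb from the nearest D4 replicate 1 peak and 9.14 kb from the nearest D4 replicate 2 peak. With 1 library each the MEF values have no replicate check. The male list holds nothing below a −log10 p of 4.57, where the 5 female lists reach down to 2.80 to 2.88, and weaker male signal would not be listed. The long D2 peaks (3.95 and 3.75) and the D4 peaks of the window (at most 3.42 and 3.82) lie below that floor.

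The peaks of the window were of modest enrichment. The authors' fold enrichment, a linear ratio of the pulldown over the peak caller's background, was 2.87 for the long peak in D2 replicate 1 and 3.04 in D2 replicate 2. These values sit at the 91.8th and 89.6th percentiles of their lists, whose medians are 2.61 and 2.80. Each of the 5 D2 peaks of the window was above its list's median. The small D2 replicate 2 peak at 135894749 had the highest fold of these, 3.17. The peak caller gives a broad peak a single value, so local maxima within the long peak are not seen.

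At D4 the peaks of the window were ordinary for their lists. Fold enrichment ran from 2.72 to 2.96 in replicate 1 and from 2.72 to 3.23 in replicate 2, with medians of 2.81 and 2.87 against list medians of 2.82 and 2.85. In each list 5 of the window's peaks were above the list median. The strongest was the replicate 2 peak at 135766114 to 135768036 (1.92 kb, fold enrichment 3.23, −log10 q 2.26), at the 96.1th percentile, and no replicate 1 peak overlapped it. At the largest shared place, by 135778734, the peaks had fold enrichments of 2.96 in replicate 1 and 3.08 in replicate 2, the highest and second highest of their lists in the window. The male MEF peak had a fold enrichment of 2.88, below its list's median of 2.91.

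**Figure D3:**
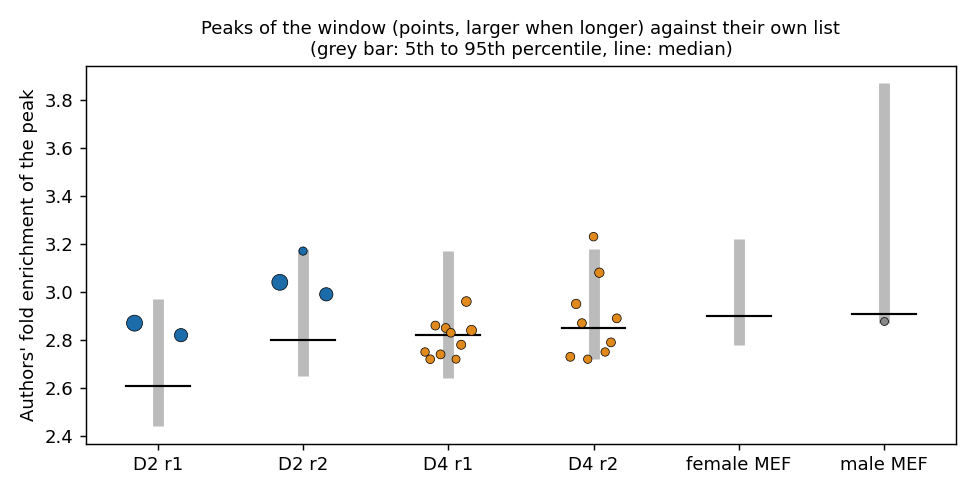
The authors' fold enrichment (vertical axis, starting above 0) of each peak of the window, as points that grow with peak length, beside the 5th to 95th percentile (grey bar) and median (line) of all peaks of the same list. The long D2 peaks stand at 2.87 and 3.04, above medians of 2.61 and 2.80, while the D4 points spread around medians of 2.82 and 2.85.

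The −log10 q of the long D2 peak was 2.36 and 2.10, against list medians of 1.58 and 1.54, and that of the D4 peaks had medians of 1.62 and 1.55, against 1.60 and 1.49. When only a −log10 q of 2 or more was accepted, the D2 peaks were kept (340 and 336 kb), D4 replicate 1 kept 0 peaks and D4 replicate 2 kept 1 of 1.92 kb. Over the whole lists this cut kept 1093 of 8227 and 786 of 7544 peaks at D2. At D4 it kept 161 of 1553 and 84 of 1148. Most peaks of each of these lists were dropped, so the loss of D4 peaks was not particular to the window. When only a fold enrichment of 3 or more was accepted, the long peak was kept in D2 replicate 2 (336 kb) and lost in D2 replicate 1, which then held 0 kb. This cut is unequal between the D2 lists, whose median folds are 2.61 and 2.80. It kept 362 of 8227 peaks in replicate 1 and 1027 of 7544 in replicate 2. Within its own list the long peak stood no lower in replicate 1 (91.8th percentile) than in replicate 2 (89.6th).

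The long segment was next read against the other places called in both D2 lists. There were 4885 such consensus segments, and at 331 kb this was the 5th longest. Of the 3 that overlap the window, the long one and the 120 kb one after it each had peaks in both D4 lists, and the segment of 521 bp between them had none. Among the 99 consensus segments of at least 50 kb, 64.6% overlapped a peak of D4 replicate 1, 57.6% a peak of D4 replicate 2 and 47.5% peaks of both. Among all 4885 the shares were 12.2%, 7.72% and 4.26%. Read from D2 replicate 1 alone, 77 of 191 peaks of at least 50 kb met both D4 lists, and from D2 replicate 2 alone 54 of 117. A D4 peak somewhere in a D2 segment of this length was therefore common.

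None of the 3 segments overlapped a female MEF peak, which 24.2% of the 99 long segments and 6.96% of all segments did. The long segment and the next overlapped male MEF peaks, of 185 bp at 135738903 and of 272 bp at 136010318. Of the long segments 15.2% did so, and of all segments 1.23%. With peaks in both D4 lists and none in female MEFs, the segment belonged to a set of 32 of the 99 (32.3%). Among the 37 segments of at least 100 kb, 17 (45.9%) were of this kind, so it was common at such lengths.

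D4 peaks covered 14.5% of the segment in replicate 1 and 10.2% in replicate 2. Among the 37 consensus segments of at least 100 kb the medians were 16.6% and 6.94%, with a range of 0 to 100% in replicate 1 and 0 to 99.1% in replicate 2. By the mean of both replicates, 12.3%, 18 segments were higher and 18 were lower. Its D2 fold enrichment was exceeded by 10 of these segments in replicate 1 and by 13 in replicate 2. Among the 99 segments of at least 50 kb the median of that mean was 4.79%, with 32 segments higher and 66 lower, so the place of the domain depends on the length limit.

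**Figure D4:**
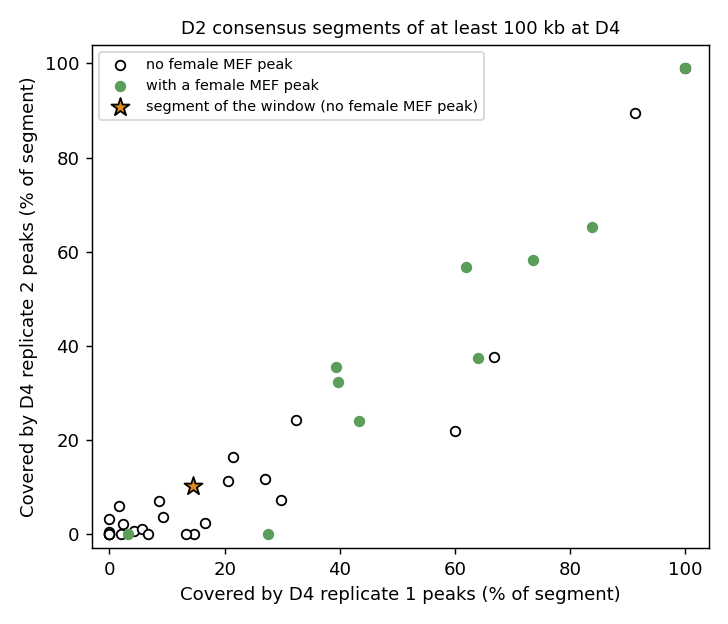
Share of each D2 consensus segment of at least 100 kb (n = 37 points) covered by peaks of D4 replicate 1 (horizontal, %) and D4 replicate 2 (vertical, %), filled where the female MEF list has a peak in the segment. The segment of the window (star) lies at 14.5% and 10.2%, with 18 segments above and 18 below its mean of 12.3%.

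The 4 consensus segments nearest to it in length, with no gaps joined, differed widely at D4. On chromosome 4, 153672939 to 154012653 (340 kb) was covered to 83.8% and 65.3% by D4 replicates 1 and 2 and to 65.1% by female MEFs. On chromosome 7, 152116020 to 152392499 (276 kb) was covered to 60.0% and 22.0%. On chromosome 9, 61404243 to 61732554 (328 kb) was covered to 4.29% and 0.572%, and on chromosome 11, 96241894 to 96549367 (307 kb) held 0 D4 peaks. The last 3 held no female MEF peak. All 4 had D2 fold enrichments of 2.76 to 2.87 in replicate 1 and 2.94 to 3.06 in replicate 2, close to the 2.87 and 3.04 of the Atp2b4, Optc and Prelp domain. D4 peaks thus covered from none to most of the length of consensus segments of like length and like D2 enrichment, and 14.5% and 10.2% of this one. The length is that of the bases in both D2 lists. The fold enrichment is that of the peak in a single list, which can be longer than the segment. With gaps of up to 10 kb joined, this domain was 627 kb long and its 4 nearest in length were partly other domains.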

How the data were processed

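The series lists 11 samples, 6 Xist pulldowns and 5 inputs, and the 6 deposited peak lists, 1 per pulldown, were analysed. The submitters' processing notes name MACS2 2.2.7.1, Bowtie2 2.2.9, Trim Galore, SAMtools, Picard and bedtools, and build mm9, without roles. Settings and the input behind each list are not given in the sources used here, and D2 and D4 lists of a replicate may share an input. The deposited lists hold chromosomes 1 to 19. They give each peak's positions, the authors' fold enrichment (a linear ratio), −log10 p and −log10 q, and a deposited score that repeats the −log10 q and was not used. These are the authors' own values and were compared within a list, with 2 exceptions. The −log10 p is also set against the lowest value of other lists. The stricter cuts put the same −log10 q or fold enrichment on all lists, although these values are comparable only within a list.

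Positions were converted to count from 1. Covered length is the merged length under peaks cut to the window, and D2 consensus segments are bases in both D2 lists. An overlap is at least 1 bp. Interval arithmetic was written in Python 3.11.15 with numpy 2.4.6 and pandas 2.3.3 and checked on simulated intervals. No statistical test was made, because the window was chosen on D2 length. The window, the members and the lists of segments were chosen with earlier results of these data known. Named genes are the 3 members and their nearest protein-coding neighbours in RefSeq's GRCm38.p6 order. Promoters matched for 3 of 3 members. Values of other calcium pump and proteoglycan genes were not analysed here, since no mm9 gene table was used.

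Alternatives were stricter peaks (−log10 q of at least 2, fold enrichment of at least 3, equal numbers of peaks), gaps of up to 10 kb joined, a window 100 kb wider at each end, other overlap and length limits, and each D2 and D4 replicate left out.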

Additional observations from a re-analysis of the deposited data

How the results depend on the processing

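No paired analysis was possible because no test was made on values that the window was chosen by, and the ratios by replicate number are given as values only. Under a −log10 q of at least 2, D2 length in the window stayed at 338 kb, while D4 means fell to 0.962 kb in 0.5 peaks, the male MEF values to 0 and D4 cover of the D2 consensus to 0.289%. Of the whole lists this cut kept 161 of 1553 and 84 of 1148 peaks at D4 and 51 of 326 in male MEFs. At D2 it kept 1093 of 8227 and 786 of 7544. Under a fold enrichment of at least 3, D2 fell to a mean of 168 kb in 1 peak, D4 to 4.72 kb in 1 peak, and the D2 consensus and the male MEF values to 0. That cut was stricter for D2 replicate 1, where it kept 362 of 8227 peaks, than for D2 replicate 2, where it kept 1027 of 7544. Of the D4 lists it kept 238 of 1553 and 198 of 1148, and of the male MEF list 61 of 326. With equal numbers of peaks, a cut that is stricter for the longer D2 lists (lowest −log10 p kept 4.11 and 3.98 at D2, 3.36 and 3.17 at D4), D2 was at 0 kb, 0 peaks and no consensus, and D4 at 15.8 kb in 2.5 peaks. With gaps of up to 10 kb joined, D2 was 346 kb in 1 peak, D4 65.6 kb in 6 peaks, the consensus 344 kb in place of 332 kb and D4 cover of it 19.1% in place of 12.3%. A wider window gave 460 kb in 7 peaks at D2, 52.3 kb at D4 and a consensus of 442 kb. The female MEF value was 0 under every one of these settings.

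Leaving out a replicate gave 336 to 340 kb in 2 to 3 peaks at D2, 33.7 to 48.1 kb in 9 to 10 peaks at D4, a D2 extent of 336 to 340 kb in place of the consensus and D4 cover of 10.1% to 14.5%. Of long D2 segments, 47 of 99 met both D4 lists and 24 female MEFs. The counts were 6 and 10 with at least 50% of the segment covered, 7 and 2 of 30 under a −log10 q of at least 2, 25 and 10 of 37 at 100 kb or more, 54 and 27 of 117 without D2 replicate 1, and 77 and 38 of 191 without D2 replicate 2. The long D2 peak's fold percentile was 93.6 and 89.7 among peaks of at least 10 kb. In the 4 domains nearest in length, the median cover by D4 was 21.7% and by female MEFs 0%, and 41.0% and 37.8% for the 4 nearest with gaps joined, which are partly other domains. The causes of these differences were not tested. Unknown depth limits all lengths and counts of peaks.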
